A study of Mus musculus with 4 samples.

Results

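The core circadian loop genes are 10 mouse genes that build the feedback loop of the clock: Arntl, Clock, Npas2, Per1, Per2, Per3, Cry1, Cry2, Csnk1d and Csnk1e. They were chosen by name, and every non-control array probe whose RefSeq transcript belongs to one of them was taken. That gave 12 probes, 1 for each of 8 genes and 2 each for Csnk1d and Csnk1e, out of 55668 probes analysed and 20656 gene symbols named on the array. The kidneys came from mice that had bile duct ligation (BDL), an operation that blocks bile flow and is used to model cholestasis, or a sham operation. Total RNA was collected 2 weeks after the operation, and each group has 2 arrays, called biological replicates in the design text. Strain, sex, age, genotype, the hour of collection and the light schedule are not given in the sources used here.

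In the mouse clock, the proteins of Arntl (BMAL1) and Clock, or Npas2 in its place, pair up and switch on genes that carry E-box DNA motifs, among them the Per and Cry genes. The PER and CRY proteins gather in the cytoplasm, return to the nucleus and shut that pair off, while casein kinase 1 delta and epsilon phosphorylate PER proteins and set how long they last. Nearly every tissue, kidney included, runs this loop on a daily cycle, so the level of most of these transcripts in a tissue depends on the hour at which it was taken.

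Promoter sequence is shown for the members in which a clock motif was found, because factors of the clock act through such motifs. RefSeq windows on build GRCm38.p6, from 250 bases before to 50 bases after a start site, were given for 8 of the 10 genes. Both strands were searched for the E-box CACGTG, its variant CACGTT, the D-box TTANGTAA, the cyclic AMP response element TGACGTCA and the RORE, which is the REV-ERB and ROR site. Capitals mark the matches, bases run 5′ to 3′ on the gene's strand, and no printed match overlaps another.
Arntl, chr7:113207528-113207556, plus strand, bases 18 to 46 after the start: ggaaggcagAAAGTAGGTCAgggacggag
Cry1, chr10:85185089-85185153, minus strand, bases -99 to -35 from the start: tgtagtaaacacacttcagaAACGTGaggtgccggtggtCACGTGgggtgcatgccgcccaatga
Cry2, chr2:92434210-92434255, minus strand, bases -186 to -141 from the start: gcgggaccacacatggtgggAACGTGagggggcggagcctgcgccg
Per1, chr11:69098763-69098808, plus strand, bases -186 to -141 from the start: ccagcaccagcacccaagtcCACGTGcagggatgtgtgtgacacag
Per3, chr4:151044796-151044890, minus strand, bases -225 to -131 from the start: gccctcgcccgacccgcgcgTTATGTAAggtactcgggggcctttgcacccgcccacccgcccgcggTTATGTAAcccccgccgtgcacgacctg
The 8 genes have 15 windows in the table, since a gene can have several start sites, and shares are given per window. The RORE was in 1 of the 15, the second window of Arntl, against 0.384% of all 32851 windows in the table. The E-box CACGTG was in 2 of the 15, from Per1 and Cry1, against 7.15%, and its variant in 2, from Cry1 and Cry2, against 4.68%. The D-box was in 1, from Per3, with 2 copies, against 2.32%. The cyclic AMP response element was in 0 of the 15, against 1.79%. A match describes these letters only and does not show that a factor binds there.

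Across the 4 arrays the processed signal, on a linear scale, was set on log2 and each array was centred on its own 75th percentile, which lay between 712 and 945 signal units. Between 57.7% and 63.1% of probes were well above background on an array, 0 spots were saturated, and the 4 arrays shared 1 slide and 1 scan time. The 5 proximal tubule markers were well above background on every array, as were Umod, Slc12a1, Slc12a3, Trpm6, Aqp2 and Nphs1. Of the 3 collecting duct markers, 2 were well above background on each sham array and 3 on each BDL array. These levels bear out the kidney label. Probes went into the test if the 2 sham arrays or the 2 BDL arrays were both well above background, and taking the brightest probe of a gene then gave 24043 features. Of the loop genes, 9 were retained and Npas2 was not.

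The loop genes that were well above background on all 4 arrays, 8 in number, each had a higher mean in BDL than in sham kidney, but no gene passed the test. Among these 8, Arntl and Per2 differed by 1.10 and 0.85 on the log2 scale and the other 6 by 0.26 or less. Cry1 was well above background in BDL kidney only, so it entered the test through the group where it is high, and it is left out of the counts over these 8. In the limma fit across all features, 0 of 9 loop genes and 0% of features had an adjusted p under 0.05, and the smallest adjusted p of any feature was 0.198. Per probe, 0 of the 11 retained loop probes and 0% of all retained probes passed, the smallest adjusted p being 0.162. At an unadjusted p under 0.05 there was 1 of the 8 genes, Arntl, against 5.62% of all features tested and 4.72% of the 22548 features well above background on all 4 arrays. The BDL mean was higher for 8 of 8, against 48.6% of features tested. For 3 of the 8 (Arntl, Per2 and Csnk1e) both BDL arrays lay above both sham arrays, against 17.4% of features tested and 16.9% of those detected on all arrays. For 0 of the 8 both lay below, against 19.2% and 19.1%. The median log2 difference of the 8 was 0.16, against -0.01 for all features. The genes share the same 4 arrays, so they are not independent of each other. Leaving out 1 array turned the sign for 5 of these genes, namely Clock, Per1, Per3, Cry2 and Csnk1d.

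**Figure D1:**
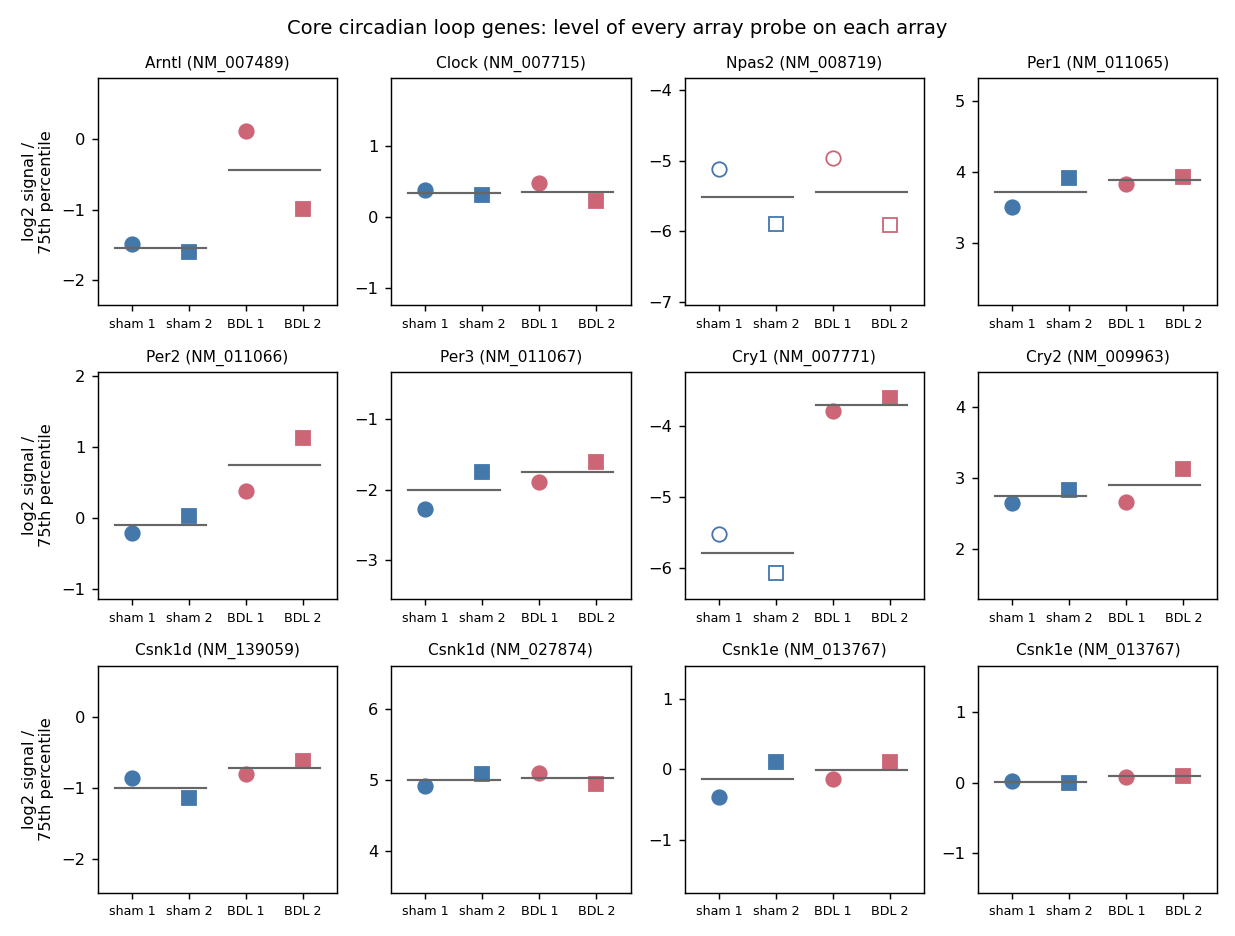
Log2 signal relative to the array's 75th percentile for each of the 12 probes of the loop genes on the sham (blue) and BDL (red) arrays, 1 panel a probe titled with its gene and RefSeq transcript, with filled points well above background, open points not, and a grey bar at each group's mean. Both BDL points lie above both sham points for Arntl, Per2, Cry1, 1 probe of Csnk1d (NM_139059) and the last panel's probe of Csnk1e, and Npas2 has open points only.

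Among the activators, Arntl had log2 levels of -1.48 and -1.60 in sham kidney and 0.10 and -1.00 in BDL kidney, which are 255, 280, 796 and 474 signal units. Both BDL arrays lay above both sham arrays, and the 2 BDL arrays were themselves 1.10 apart. The group means were -1.54 ± 0.09 and -0.45 ± 0.78 (SD, n = 2 each), a log2 difference of 1.10 with a standard error of 0.41, or 2.14-fold with a 95% interval of 1.01 to 4.54. The limma adjusted p was 0.872. Without the first BDL array the log2 difference was 0.55, and without the second it was 1.65.

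Clock, the DNA-binding partner of BMAL1, had log2 levels of 0.38 and 0.31 in sham and 0.49 and 0.23 in BDL. The highest and the lowest value were both BDL, so the groups overlapped. The difference was 0.01 with a standard error of 0.21 and a 95% interval of -0.53 to 0.56, with a limma adjusted p of 0.995. Arntl and its partner thus had unlike differences, although the difference between them was not tested.

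Npas2, which can take the place of Clock in that pair, was not well above background on any of the 4 arrays. Its signals were 20.4 and 14.3 units in sham and 23.6 and 15.7 units in BDL. The groups overlapped, and no fold is given for a gene below background in both. At this signal a difference in Npas2 was not detectable.

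The Period genes encode the repressors that casein kinase 1 acts on. Per1, an early-response gene of the loop, had log2 levels of 3.50 and 3.92 in sham and 3.82 and 3.93 in BDL. The first sham array was low and the other 3 lay together, with the groups overlapping. The difference was 0.17 with a standard error of 0.23 and a 95% interval of -0.45 to 0.79, and the limma adjusted p was 0.923.

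Per2, a core repressor whose transcript also answers to glucocorticoids, had log2 levels of -0.22 and 0.03 in sham and 0.38 and 1.13 in BDL, or 612, 867, 963 and 2070 signal units. Both BDL arrays lay above both sham arrays, with the second BDL array well above the first. The means were -0.09 ± 0.17 and 0.76 ± 0.53 (SD, n = 2 each), a difference of 0.85 with a standard error of 0.32, or 1.80-fold with a 95% interval of 0.999 to 3.25. The limma adjusted p was 0.872. Without the second BDL array the log2 difference was 0.47, and without the first it was 1.23. The order of the 2 BDL arrays was thus the reverse of that of Arntl.

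Per3, the Period gene with the weaker known role in keeping the loop running, had log2 levels of -2.28 and -1.75 in sham and -1.89 and -1.61 in BDL. The groups overlapped, with the first sham array lowest. The difference was 0.26 with a standard error of 0.27 and a 95% interval of -0.45 to 0.98, and the limma adjusted p was 0.902. Its promoter carries the 2 D-boxes printed earlier, a site of the PAR bZIP factors DBP, TEF and HLF and of the repressor NFIL3.

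The cryptochromes are the strongest repressors of the BMAL1 and CLOCK pair. Cry1, a late-phase repressor, gave 15.5 and 12.6 signal units in sham, both not well above background, and 53.6 and 77.6 units in BDL, both well above it. On the log2 scale these are -5.52, -6.07, -3.79 and -3.61, so both BDL arrays lay above both sham arrays and close to each other. The sham signal gives only an approximate bound, by which Cry1 was 2.37-fold or more higher in BDL. That bound sets the BDL mean against the sham arrays' lowest signal among probes well above background, or the probe's own signal if higher. A probe above that lowest signal can still be called not well above background, as Cd79a was on the first sham array. The bound is therefore not a strict limit, and it has no interval. For Cry1 the limma adjusted p was 0.451, computed on sham signals below that lowest signal. With another background correction (normexp) the log2 difference was 0.63 with a standard error of 0.20. That is below the bound, so the bound holds for the processed signal only. Normexp was run with an offset of 50 units added to every signal, which is large beside the Cry1 signals of 12.6 to 77.6 units. The part of the offset in the smaller difference was not tested.

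Cry2, the other cryptochrome, had log2 levels of 2.66 and 2.84 in sham and 2.66 and 3.14 in BDL. The second BDL array was highest and the first stood beside the lower sham array, so the groups overlapped. The difference was 0.15 with a standard error of 0.25 and a 95% interval of -0.51 to 0.82, and the limma adjusted p was 0.934. The unlike differences of the cryptochromes were not tested against each other.

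Of the kinases, Csnk1d had a bright probe, on transcript NM_027874, with log2 levels of 4.92 and 5.09 in sham and 5.11 and 4.95 in BDL. The groups overlapped. The difference was 0.03 with a standard error of 0.20 and a 95% interval of -0.50 to 0.56, and the limma adjusted p was 0.986. A second probe, on transcript NM_139059, gave -0.86 and -1.13 in sham and -0.80 and -0.62 in BDL, with the BDL arrays above the sham arrays. Its difference was 0.29 with a standard error of 0.22 and an adjusted p of 0.882 over all retained probes. The 2 probes therefore differed in whether the groups overlapped, and neither passed the test.

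Csnk1e, the epsilon kinase, had log2 levels of 0.03 and -0.01 in sham and 0.08 and 0.10 in BDL on its brighter probe. The groups did not overlap, but the gap was small. The difference was 0.08 with a standard error of 0.19 and a 95% interval of -0.41 to 0.57, and the limma adjusted p was 0.954. The second probe gave -0.39 and 0.11 in sham and -0.13 and 0.11 in BDL, overlapping, with a difference of 0.13 and a standard error of 0.26.

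**Figure D2:**
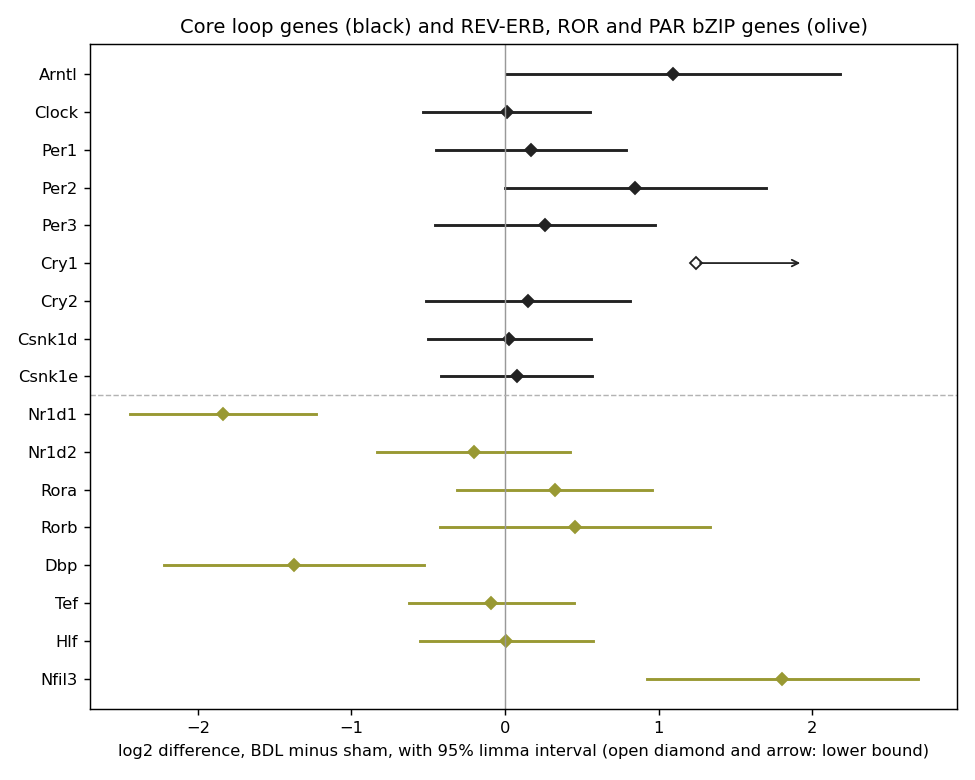
Log2 difference, BDL minus sham (filled diamonds), with 95% intervals from the limma fit, for the measured loop genes (black). Olive marks REV-ERB, ROR and PAR bZIP genes of the second arm, described further on. Cry1 is drawn at its approximate lower bound of 1.25 (open diamond and arrow, whose length has no meaning). Of the other loop genes the interval of Arntl (0.01 to 2.18) lies above 0 and the rest include it, and of the olive genes Nfil3 lies above 0 and Nr1d1 and Dbp below.

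The arrays were not ordered alike for all genes. Cry1, which passed the filter only through the BDL arrays, is left out here. Of the other measured genes, Per1, Per2, Per3, Cry2 and Csnk1e were highest on the second BDL array, and Arntl, Clock and Csnk1d on the first. The lowest value was on the first sham array for Per1, Per2, Per3, Cry2 and Csnk1d. It was on the second sham array for Arntl and Csnk1e, and on the second BDL array for Clock. The matching shares over all features were not computed, so these orders are a description only.

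Markers of other tissues differed between the arrays as well. Levels of a marker list were summed on the linear scale and then set on log2, so the brightest gene weighs most. Summed over 5 urothelium markers, the log2 level was 1.38 and 3.01 in sham and 5.76 and 0.29 in BDL. Summed over 3 adipocyte markers it was 1.80 and -2.25 in sham and 6.58 and -3.66 in BDL, with Adipoq and Plin1 well above background only on the first array of each group. The first BDL array, where Arntl was highest, was therefore also highest in both lists, whereas Per2 and Cry1 were highest on the second BDL array, which was lowest in both. Their part in the Arntl difference was not tested. In whole kidney, more cells of a type and more RNA per cell cannot be told apart.

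Of 16 marker lists, the summed level was higher on both BDL arrays than on both sham arrays for 3 (distal convoluted tubule, podocyte and red blood cell). It was lower on both for 6 (interferon response, B cell, macrophage, endothelium, hepatocyte and adrenal gland), and the groups overlapped for 7. Members of a list did not all go alike. Endothelium was lower through Kdr, at -0.31, while Pecam1 and Cdh5 were 0.18 and 0.16 higher with overlap. Trpm6 (distal convoluted tubule), Adgre1 (macrophage), Alb (hepatocyte) and Th (adrenal gland) also overlapped when taken singly. The adrenal gland sums nearly touched, at -0.18 on the second sham array and -0.20 on the second BDL array. The 5 interferon response genes on the array had summed levels, on log2, of 4.41 and 2.78 in sham and 2.11 and 1.78 in BDL. The 3 red blood cell genes on the array had 7.89 and 7.45 in sham and 9.23 and 8.39 in BDL. The 3 B cell genes had -0.51 and -0.57 in sham and -1.74 and -1.44 in BDL, with Ms4a1 well above background on the sham arrays only. Of the 4 adrenal markers, Cyp11b1 and Cyp11a1 were not well above background on any array, and Star and Th were on every array. The part of these lists in the loop gene differences was not tested.

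**Figure D3:**
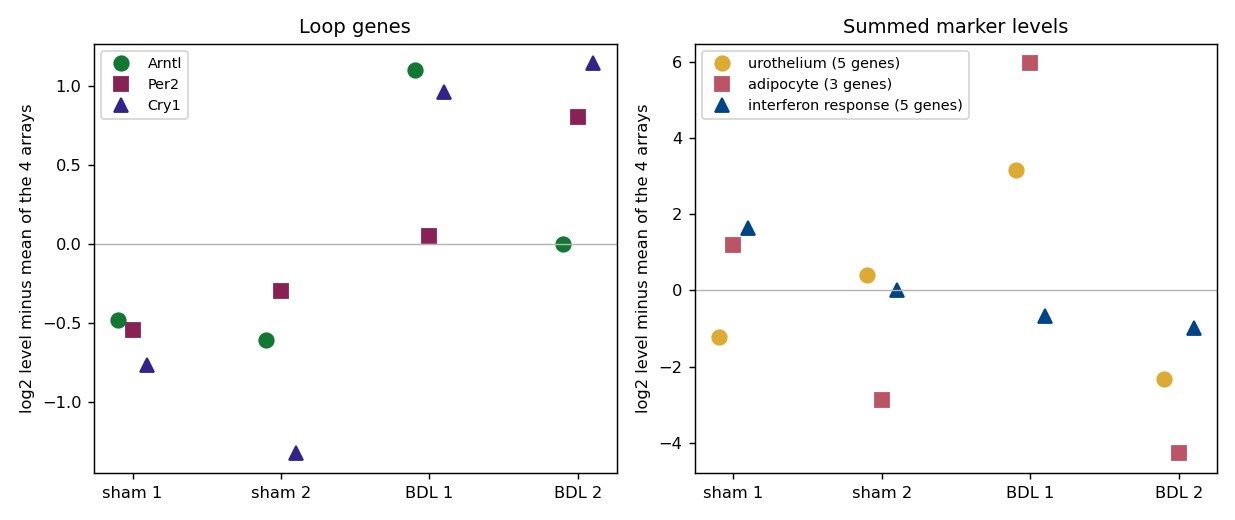
Left, log2 levels of Arntl, Per2 and Cry1, and right, log2 of the summed linear levels of the urothelium (5 genes), adipocyte (3 genes) and interferon response (5 genes) markers. Each is shown minus its mean of the 4 arrays, for sham 1, sham 2, BDL 1 and BDL 2. Arntl and the urothelium and adipocyte markers are highest on BDL 1, while Per2 and Cry1 are highest on BDL 2.

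The second arm of the clock consists of the repressors Nr1d1 and Nr1d2 (REV-ERB), activators of the ROR family such as Rora and Rorb, which compete with them at the RORE of Arntl, and the factors Dbp, Tef, Hlf and Nfil3, which meet at D-boxes. Of these 9 genes, 9 were measured, 5 were higher and 4 lower in mean, and 0 passed the limma threshold, with 4 at an unadjusted p under 0.05 (5.62% of all features). Groups did not overlap for 3 higher genes and 2 lower ones (17.4% and 19.2% of all features), and the median difference was 0.01. Nr1d1, the REV-ERB alpha repressor, had log2 levels of 0.55 and 0.16 in sham and -1.53 and -1.44 in BDL, a difference of -1.84 with a standard error of 0.23 and an adjusted p of 0.422. Nfil3, the D-box repressor, had -0.29 and 0.29 in sham and 2.11 and 1.51 in BDL, a difference of 1.81 with a standard error of 0.33. Dbp, the D-box activator, had 6.43 and 6.26 in sham and 4.59 and 5.35 in BDL, a difference of -1.37 with a standard error of 0.32. For these 3 genes the groups did not overlap. Rora and Rorb were 0.32 and 0.46 higher with standard errors of 0.24 and 0.33.

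Loop modifiers, the paralogues, kinases, ubiquitin ligases and cofactors of the loop proteins, were measured for 36 of 37 genes, as Bhlhe41 was not retained. Of the 36, 21 were higher and 15 lower in mean (48.6% of all features were higher), and 9 were higher and 5 lower without overlap (17.4% and 19.2% of all features). At an unadjusted p under 0.05 there were 2, a share near the 5.62% of all features, and 0 passed in the limma fit. The median difference was 0.05. Sfpq, a cofactor bound by PER complexes, was 0.95 higher with a standard error of 0.25 and an adjusted p of 0.804. Bhlhe40 (DEC1), a repressor that binds E-boxes, had log2 levels of 2.22 and 1.93 in sham and 2.81 and 2.85 in BDL, a difference of 0.76 with a standard error of 0.21. Fbxl21, which encodes a CRY ubiquitin ligase subunit, differed by -0.71 with a standard error of 0.38, and Ciart (CHRONO), a repressor of BMAL1, by -0.97 with a standard error of 0.62 and with overlap. Id2, an inhibitor of helix-loop-helix factors, and Prkca, a protein kinase C, differed by 0.41 and -0.33 with standard errors of 0.22 and 0.19.

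The list named inputs to the Per genes holds factors and targets of glucocorticoid, CREB and serum signals. Its targets answer to these signals, and action of the listed genes on the Per genes was not tested. All the listed genes were measured, 21 of 21. Of these 20 were higher and 1, the glucocorticoid receptor Nr3c1, was lower in mean (48.6% of all features were higher), and 10 were higher and 1 lower without overlap (17.4% and 19.2% of all features). At an unadjusted p under 0.05 there were 5 (5.62% of all features), with 0 past the limma threshold. The median difference was 0.15. Creb1, the cyclic AMP response factor, had log2 levels of -3.09 and -3.05 in sham and -2.12 and -2.09 in BDL, a difference of 0.97 with a standard error of 0.19 and an adjusted p of 0.673. Fos, an immediate-early factor, had -3.39 and -3.14 in sham and -2.40 and -2.07 in BDL, a difference of 1.03 with a standard error of 0.23. Tsc22d3 (GILZ), a glucocorticoid target, had 3.57 and 3.63 in sham and 4.37 and 4.73 in BDL, a difference of 0.95 with a standard error of 0.22. In all 3 genes the groups did not overlap. Sgk1, a glucocorticoid-induced kinase, was 0.83 higher with a standard error of 0.24, the immediate-early nuclear receptor Nr4a1 was 0.77 higher with 0.24, and Junb was 0.62 higher with 0.25.

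Clock outputs were measured for 20 of 20 genes. Of these 16 were higher and 4 lower in mean (48.6% of all features were higher), and 7 were higher and 0 lower without overlap (17.4% and 19.2% of all features). At an unadjusted p under 0.05 there were 3 (5.62% of all features), and 0 passed the limma threshold. The median difference was 0.32. Lonrf3, a ring finger protein gene, had log2 levels of 0.36 and 0.78 in sham and 2.52 and 2.20 in BDL, a difference of 1.79 with a standard error of 0.26 and an adjusted p of 0.544, or 3.46-fold. The vasopressin receptor Avpr1a was 0.85 higher with a standard error of 0.21, and the tetraspanin Tspan4 was 0.66 higher with 0.21. Pdk4, a kinase that restrains pyruvate oxidation, was 1.18 higher with a standard error of 0.55. Its log2 levels were -0.33 and 0.42 in sham and 1.92 and 0.54 in BDL. The second BDL array thus lay close to the second sham array. The cell-cycle kinase Wee1 was 0.48 higher with a standard error of 0.25, and Scnn1a, a subunit of the epithelial sodium channel, was 0.38 higher with 0.20.

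**Figure D4:**
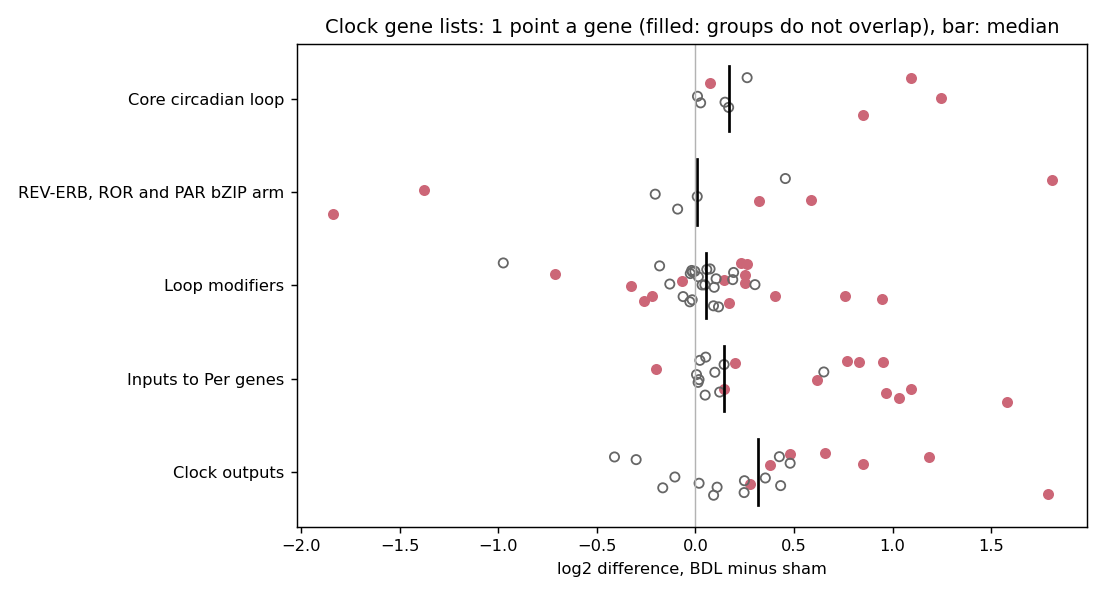
Log2 difference, BDL minus sham, for each measured gene of the core loop (9), the REV-ERB, ROR and PAR bZIP arm (9), the loop modifiers (36), the inputs to the Per genes (21) and the clock outputs (20). Cry1 is at its approximate lower bound of 1.25, points are filled where the groups do not overlap, and a bar is at the median of the list. The medians are 0.17, 0.01, 0.05, 0.15 and 0.32, and 0 genes passed the limma threshold.

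The features whose centred log2 values lay nearest to a loop gene over the 4 arrays were sought by Euclidean distance, a description that 4 arrays cannot make specific. Nearest to Arntl were Apoe at 0.07, Defa23 at 0.14 and Hbq1b at 0.14, with 111 of 24042 other features within 0.5. Nearest to Per2 were Dsg2 at 0.12, Cyp2f2 at 0.13 and Hsf5 at 0.15, with 233 within 0.5. Cry1, on sham signals not well above background, had 5 features within 0.5, among them Lrrc52 at 0.30, 4930470H14Rik at 0.42 and Marco at 0.47. Some neighbours were dim as well. Defa23, Hsf5, Lrrc52 and 4930470H14Rik had log2 levels of -5.01, -4.985, -4.77 and -5.25 on the first sham array. Each lay below that array's lowest signal among probes well above background. For the 6 genes that varied little, between 5710 and 13291 features lay within 0.5. Their nearest were Nxf1, BB014433 and Gm5129 for Per3, Zdhhc24, Rufy3 and Cys1 for Cry2, and Rapgef5, Olfr676 and Zbtb48 for Per1. They were Rpl35a, Cisd2 and Zfp110 for Clock, Crtc1, Zscan12 and Cep290 for Csnk1d, and Aamdc, Poldip2 and Brd2 for Csnk1e.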

How the data were processed

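The submitters' processing notes name Agilent Feature Extraction 11.0.1.1. Per the file headers, the processed signal is a linear intensity from which background and a spatial trend were removed, with no scaling across arrays. In the authors' deposited value table, each array's intensities are these signals over a single constant. Spots of a probe were averaged after control and outlier spots were left out. A total of 13 probes without a usable value on every array were dropped, and 27229 of 55668 probes were named through RefSeq transcripts. Log2 values were tested with limma 3.58.1 (R 4.3.3, lmFit and eBayes, 2 arrays a group), two-sided with Benjamini-Hochberg adjustment over all features, after a test on simulated data. The number of arrays limits the precision.

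The loop genes and all lists were chosen with earlier results of these data known, so their counts are descriptions. The text names all loop genes, of each wider list the genes past the threshold or the 6 with the smallest p, and for each measured loop gene the 3 named features with the nearest pattern, except for values that are not reported here. Alternatives changed the background correction, scaling, starting table, filter, probes per gene, weights, prior variance, replicate block and arrays used. Normexp used an offset of 50 units and the spots' median signal, since the scanner files hold no mean signal column. Promoter windows are RefSeq's, on GRCm38.p6, and those of Per2 and Csnk1d were not used here.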

Additional observations from a re-analysis of the deposited data

How the results depend on the processing

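In each of the 14 alternatives 0 features and 0 loop genes passed the limma threshold. Of 149 alternative values for single genes or probes, 140 had the main sign and 9 the opposite one. Normexp gave Clock -0.048. Leaving out 1 array gave log2 differences of -0.12 to 0.14 for Clock, -0.038 to 0.38 for Per1, -0.0012 to 0.53 for Per3, -0.089 to 0.39 for Cry2, -0.059 to 0.11 for Csnk1d and -0.12 to 0.38 for the second probe of Csnk1e, and the cause was not tested. It gave 0.55 to 1.65 for Arntl and 0.47 to 1.23 for Per2. The measured Cry1 difference, with sham below the detection level, ran from 0.63 to 2.13 over the settings that keep every array. The 0.63 came from normexp with its offset of 50 units, and lay under Arntl and Per2 in that setting. The filter on all 4 arrays left out Cry1, and Per2 was not analysed in the authors' table. Features at an unadjusted p under 0.05 numbered 1352 in the main fit, 844 without the first BDL array and 2793 without the second sham array. Such fits leave 1 array in a group and assume that it varies like the other group, which alone supplies the spread. With the replicate block, Arntl was 1.10 with a standard error of 0.33 and a limma adjusted p of 0.814, and 1448 features were at an unadjusted p under 0.05. The same-numbered arrays' deviations correlated at 0.0632, so the numbers were not taken to pair them. Dim signal limits Cry1 in sham and Npas2 in both groups.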
